A study of Mus musculus with 5 samples.

Results

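Gpr137b encodes a membrane-spanning protein of the lysosome, and Gpr137b-ps is annotated as its pseudogene copy. Both were followed through 5 mouse co-culture arrays. Every probe set whose platform annotation gives one of these symbols was taken, which found 1 for Gpr137b (103923_at) and 1 for Gpr137b-ps (103017_at) among 12488 probe sets, or 2 of the 8251 genes with a symbol of their own. The genes were chosen by these same intensities, for the large difference between Fos-/- and Fos+/+ cultures. That contrast is therefore described without a test.

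The dishes held haematopoietic cells on a layer of ST2-T stromal cells, kept for 6 days with dexamethasone and 1,25-dihydroxyvitaminD3, conditions under which osteoclasts, the cells that resorb bone, can form. The 5 groups were Fos-/- splenocytes infected with a deltaNFAT virus, Fos-/- splenocytes infected with a green fluorescent protein (GFP) virus, Fos-/- splenocytes without virus, Fos+/+ bone marrow cells and Fos+/+ splenocytes. Fos encodes a subunit of the AP-1 transcription factor, and Fos+/+ cells are wild type. Each group had 1 array, whole dishes were harvested, and total RNA of the haematopoietic and stromal cells was measured together. The labels are silent on the deltaNFAT construct, the virus doses, the number of animals behind a dish and the Fos genotype of the stromal cells.

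The GPR137B protein sits in the lysosomal membrane. In human cells it binds Rag GTPases, which recruit the growth kinase complex mTORC1 to the lysosome when amino acids are plentiful, and in zebrafish loss of the gene alters bone remodelling. Osteoclasts build their acid-secreting ruffled border by fusing lysosomes with the cell membrane. Mice without Fos lack osteoclasts, and the transcription factor Nfatc1 acts downstream of Fos in osteoclast precursors. Both symbols were found in RefSeq (GRCm38.p6, taken for names and neighbours only). RefSeq lists Gpr137b as protein coding and Gpr137b-ps as a transcribed pseudogene. Both lie on the same chromosome with 22 annotated genes between them, 4 of them protein coding and 0 of them represented by a named probe set. Whether either probe set also reads RNA of the other gene was not tested, so a value given for one may include the other.

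Facts of the arrays that bear on every value come first. Intensities are on a linear scale, and in each array between 20.3 and 22.4% of them did not exceed 0. Values under 19.8, the 40th percentile of all scaled values and here called the floor, were set to it before any ratio, and 58.3 to 62.3% of an array lay above it. A fold against a value under the floor is a lower bound, written "at least". Fos itself does not check the labels: its brighter probe set read 581 with deltaNFAT, 607 with GFP, 426 in Fos-/- spleen, 614 in Fos+/+ bone marrow and 848 in Fos+/+ spleen, and it is not known here whether that probe set lies in the part removed from the gene. With 1 array a group there is no replicate error, no standard deviation and no test; the precision of each ratio is limited by the single arrays behind it. In whole dishes, fewer cells of a type and less RNA per cell cannot be told apart.

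Gpr137b was bright in both Fos+/+ cultures and near or under the floor in all 3 Fos-/- cultures. It read 44.5 with deltaNFAT, 7.50 with GFP and 30.3 without virus in Fos-/- spleen, against 295 in Fos+/+ bone marrow and 593 in Fos+/+ spleen. The Fos-/- and Fos+/+ arrays did not overlap, which was so in this direction for 15.1% of the 5567 genes that reached 39.6 (2 times the floor) in some array, and the lowest Fos+/+ value was 6.62 times the highest Fos-/- value. Set against Fos+/+ spleen, the Fos-/- levels were 7.51% with deltaNFAT, at most 3.34% with GFP and 5.11% without virus, and the bone marrow level was 49.7%.

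Gpr137b-ps had the same split and stayed above the floor in every array. It read 203 with deltaNFAT, 145 with GFP and 105 without virus in Fos-/- spleen, against 469.9 in Fos+/+ bone marrow and 773 in Fos+/+ spleen. Here too the groups did not overlap, and the lowest Fos+/+ value was 2.32 times the highest Fos-/- value. As shares of the Fos+/+ spleen level these are 26.2% with deltaNFAT, 18.8% with GFP, 13.6% without virus and 60.8% in bone marrow. Levels of the 2 probe sets are not set against each other, since probes differ in their brightness per RNA molecule.

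**Figure D1:**
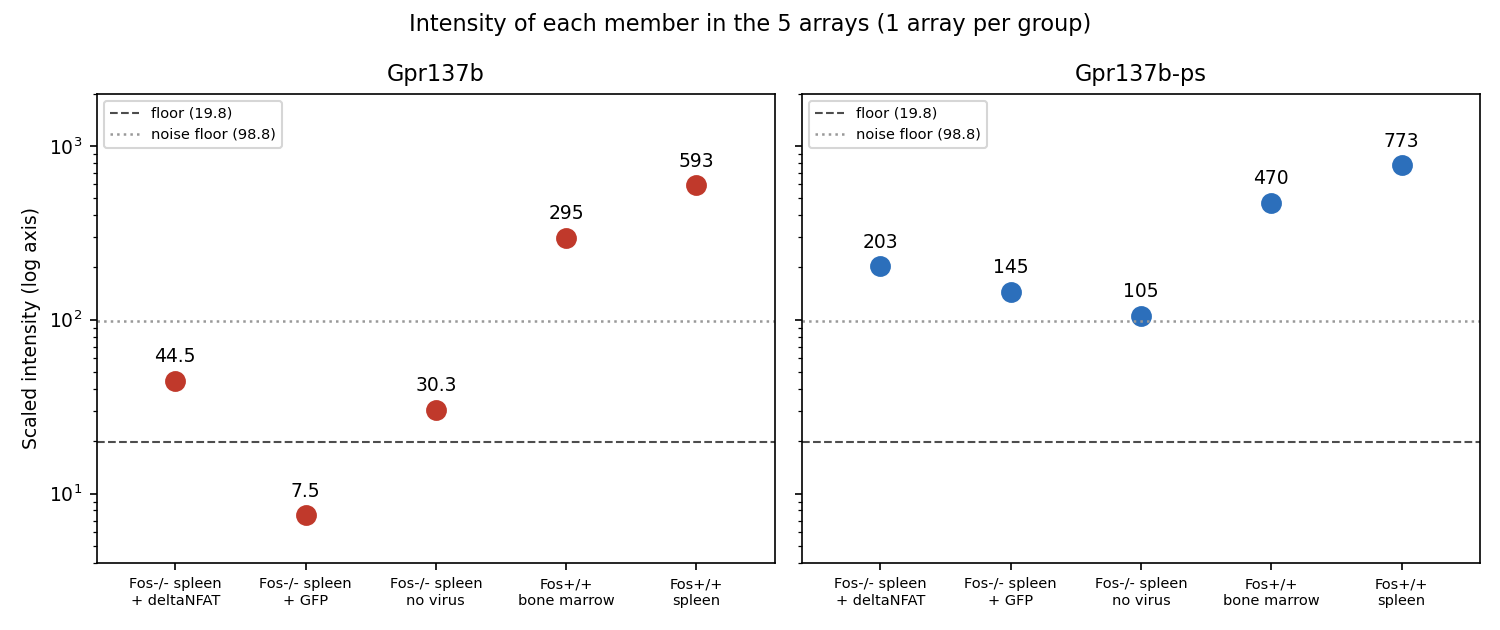
Scaled intensity (log axis) of Gpr137b (left panel) and Gpr137b-ps (right panel) in each of the 5 arrays, 1 point per array, with the floor of 19.8 dashed and a higher noise floor of 98.8 dotted. The 3 Fos-/- points of Gpr137b lie at 44.5, 7.50 and 30.3, all under the dotted line, while those of Gpr137b-ps lie at 203, 145 and 105, above it.

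The order of the arrays was nearly the same for both genes. Fos+/+ spleen was highest, Fos+/+ bone marrow came next and deltaNFAT after it. The order of the 2 remaining arrays differed, since GFP read below the culture without virus for Gpr137b (under the floor against 30.3) and above it for Gpr137b-ps (145 against 105). No replicate gives a spread by which neighbours in this order could be separated. A noise level can be taken from the negative values: the 1st percentile of all scaled values was as far below 0 as 98.8 is above it. All 3 Fos-/- values of Gpr137b lie under 98.8, so their order among themselves is not readable at that level.

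In Fos-/- spleen without virus, Gpr137b was 19.6-fold lower than in Fos+/+ spleen and Gpr137b-ps 7.34-fold lower, log2 ratios of -4.29 and -2.88. A gene is counted as past 2-fold when the brighter of the 2 arrays reached 39.6, or 2 times the floor. By that rule 6.48% of 4997 genes were lower and 6.42% higher in Fos-/- spleen. Both members are among the lower ones, as their choice requires. Ordered by ratio with values under the floor set at 19.8, Gpr137b came 4th from the bottom and Gpr137b-ps 17th. Genes whose fold is a lower bound may truly lie further down, so these places are not exact. The 3 genes listed before Gpr137b were Car2, whose carbonic anhydrase makes the protons secreted onto bone (at least 49.0-fold lower), Ctsk, the collagen-degrading cathepsin K (46.7-fold lower), and Nfatc1 (32.0-fold lower). Listed directly after Gpr137b were the sodium-proton exchanger gene Slc9b2 (at least 18.0-fold lower), the calcitonin receptor gene Calcr (at least 17.0-fold lower), Fam102a (at least 16.7-fold lower), the matrix proteoglycan gene Dcn (at least 16.1-fold lower) and the semaphorin gene Sema4d (15.1-fold lower).

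The size of the Gpr137b fold rests on a dim denominator. With the floor raised to the 60th percentile (65.1) it became at least 9.10-fold lower, and with the noise floor of 98.8 at least 6.00-fold lower. The 7.34-fold difference of Gpr137b-ps was the same at all of these floors, since both of its values lie above them. At the floor of 19.8 the log2 ratio of Gpr137b minus that of Gpr137b-ps was -1.41. At 98.8 the bound for Gpr137b lay 0.29 above the value for Gpr137b-ps, so which of the genes differed more between the spleen cultures is not settled by these arrays.

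A pair of arrays that shares none with the spleen pair is Fos-/- spleen with GFP over Fos+/+ bone marrow, although it differs in tissue and virus as well as in genotype. There Gpr137b was at least 14.9-fold lower (log2 ratio -3.90) and Gpr137b-ps 3.24-fold lower (-1.69). In that pair 9.23% of 5257 genes were lower and 5.97% higher by 2-fold or more, and the members ranked 5th and 108th from the bottom, with the same limit on places. The members were selected for a lower level without Fos, so their place here is given as a description. Over all 5 arrays, 49 of 5567 genes (0.880%) were at least 2-fold lower in every Fos-/- array than in both Fos+/+ arrays, and both members belong to them. By the size of that gap, taken with values under the floor set at 19.8, they ranked 4th and 35th.

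**Figure D2:**
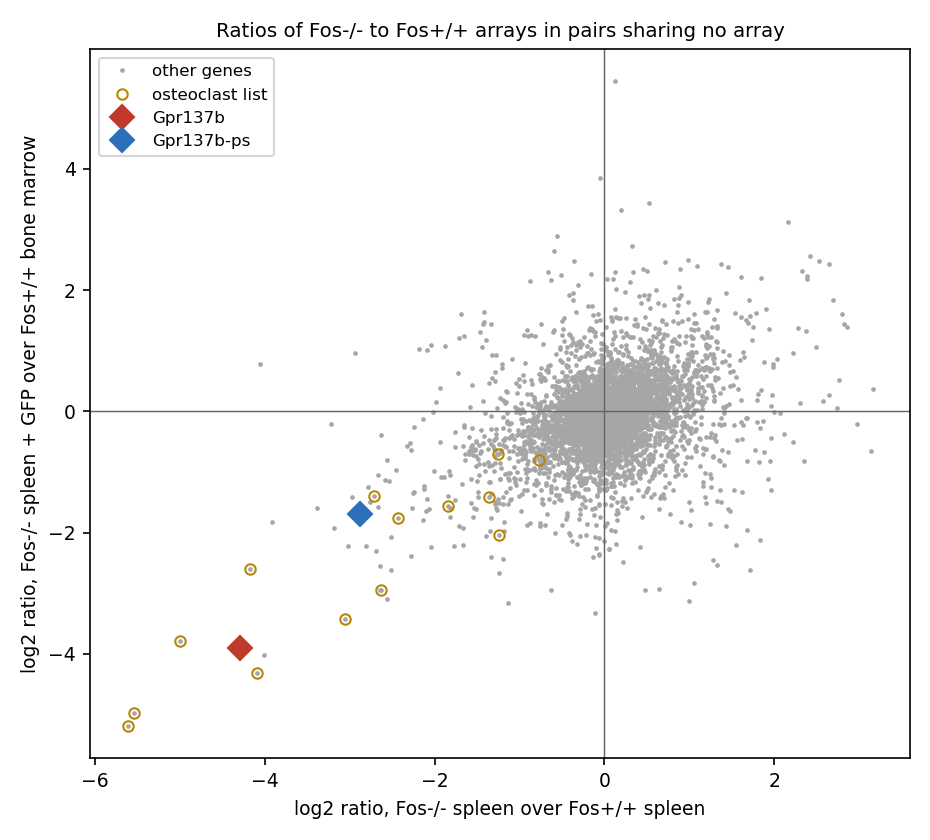
log2 ratio of Fos-/- spleen over Fos+/+ spleen (horizontal) against that of Fos-/- spleen with GFP over Fos+/+ bone marrow (vertical) for 4741 genes bright enough in both, with values below 19.8 raised to it. Gpr137b (-4.29 and -3.90) and Gpr137b-ps (-2.88 and -1.69) are diamonds in the lower left, and open circles are genes of the osteoclast list.

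In Fos+/+ cultures the members were lower from bone marrow than from spleen. Gpr137b read 295 in bone marrow and 593 in spleen and was 2.01-fold lower (log2 ratio -1.01), against a background of 7.18% of 5291 genes lower by 2-fold or more. After quantile normalization it was 1.96-fold lower and no longer past 2-fold. Gpr137b-ps read 469.9 against 773 and was 1.64-fold lower, short of 2-fold. The same ratio had 4 of 18 osteoclast genes lower and 1 higher. Neutrophil genes went the other way, with 10 of 11 measured higher in bone marrow (background 13.2%) and a summed intensity of 9901 against 1402 in spleen; their part in the members' values was not tested.

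With the deltaNFAT virus, Gpr137b was at least 2.25-fold higher than with GFP in Fos-/- spleen cells, with 44.5 against a value under the floor (log2 ratio 1.17). This is a dim difference, since both values lie under 65.1 and no ratio can be had at that floor or at 98.8. In this comparison 3.54% of 5032 genes were higher and 2.58% lower by 2-fold or more. Gpr137b-ps, measured above the noise floor in both arrays, read 203 against 145 and was 1.40-fold higher, short of 2-fold. Over Fos-/- spleen without virus, deltaNFAT gave 1.47-fold for Gpr137b and 1.93-fold for Gpr137b-ps, and neither reached 2-fold. Among 5180 genes, 11.0% were higher and 6.66% lower there.

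Between the GFP virus and no virus in Fos-/- spleen, neither member passed 2-fold. Gpr137b was at least 1.53-fold lower with GFP than without virus, but its brighter array read only 30.3 and was too dim to count. Gpr137b-ps was 1.38-fold higher with GFP than without virus. The background here was 10.3% of 5113 genes higher and 7.06% lower by 2-fold or more. The comparisons of deltaNFAT with GFP and with no virus share the deltaNFAT array, and the GFP and no-virus arrays each serve in several ratios.

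Genes were also ordered by how like their pattern over the 5 arrays was to that of Gpr137b. Likeness was the root mean square difference of log2 values after each gene's own mean was removed, over 4400 genes that reached 79.2 (4 times the floor) in some array. The 10 nearest lay between 0.40 and 0.72, against a median of 1.94 for all genes compared. They were Nfatc1, Dcn, Slc9b2, the tartrate-resistant acid phosphatase gene Acp5, Car2, the creatine kinase gene Ckb, Calcr, the cytoskeletal adaptor gene Pstpip1, Igf2r, whose product carries hydrolases to the lysosome, and the receptor kinase gene Mst1r. Of these, 6 are in the osteoclast list and Dcn is in the stromal list. Gpr137b was chosen for being low without Fos in these same arrays, so its nearest profiles are bound to be genes low without Fos, and the count of osteoclast genes among them is a description only.

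Nfatc1, the nearest, read 82.7 with deltaNFAT, 23.4 with GFP and 23.5 without virus in Fos-/- spleen. It read 325 in Fos+/+ bone marrow and 751 in Fos+/+ spleen. Whether the Nfatc1 probe set also picks up viral RNA in the deltaNFAT array was not tested. Its value there, and so its place as nearest, may not reflect the cells' own gene alone. Acp5, which is bright in all arrays, read 964 with deltaNFAT, 239 with GFP and 462 without virus, against 2580 in Fos+/+ bone marrow and 3836 in Fos+/+ spleen. Acp5 shares with Gpr137b the order of all 5 arrays, GFP lowest, and so do Nfatc1, Ckb, Pstpip1 and Igf2r. The Fos-/- values of Gpr137b all lie under 98.8, so that part of the order is not readable at that level. Igf2r read 45.8 with deltaNFAT, under the floor with GFP and 27.3 without virus, against 152 in Fos+/+ bone marrow and 170 in Fos+/+ spleen.

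The genes most like Gpr137b-ps lay at 0.15 to 0.32 from it, against a median of 1.11 for all genes compared. The profile of Gpr137b-ps spans a narrower range than that of Gpr137b. Their distances are therefore not set against each other. The nearest was Tcirg1, the proton pump subunit of the ruffled border, which read 220 with deltaNFAT, 173 with GFP and 140 without virus in Fos-/- spleen, against 452 in Fos+/+ bone marrow and 914 in Fos+/+ spleen. Its order of arrays was that of Gpr137b-ps throughout. The others were the ubiquitin ligase gene Rnf19b, the growth factor gene Hbegf, the mast cell protease gene Mcpt1, the myosin gene Myo1d, the DNA methyltransferase gene Dnmt3a, the surface glycoprotein gene Cd200, the mitotic kinase gene Aurka, the hyaluronan receptor gene Cd44 and the methyltransferase gene Smyd5. Tcirg1 and Myo1d are in the osteoclast list.

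The 2 lists of 10 shared 0 genes. Gpr137b-ps ranked 24th in likeness to Gpr137b, with a difference of 0.93 and r = 0.97 over 5 arrays, and Gpr137b ranked 671st in likeness to Gpr137b-ps, since many shallower profiles lay nearer. With the noise floor, which leaves 1101 genes to compare, the members ranked 5th and 4th in likeness to each other. An r of 0.95 or more over 5 arrays was shared by 2.34% of genes with Gpr137b and 1.59% with Gpr137b-ps. All of these points come from the same 5 arrays and depend on the same scaling and floor. Of the 10 nearest to Gpr137b, 10 remained after quantile normalization, 5 at the floor of 65.1 and 2 at 98.8, and of those nearest to Gpr137b-ps 8, 2 and 2 remained.

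**Figure D3:**
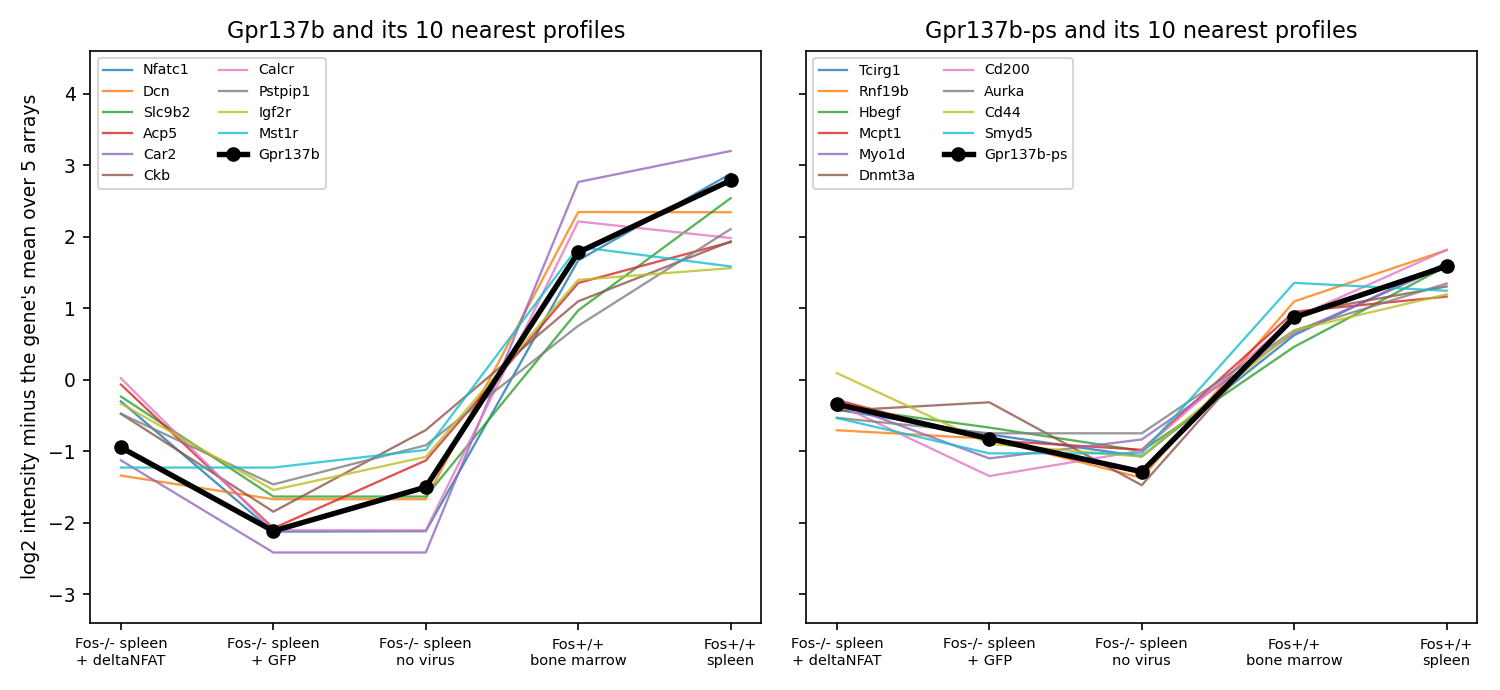
log2 intensity minus the gene's own mean over the 5 arrays, for Gpr137b (left panel, black) and Gpr137b-ps (right panel, black), each with its 10 nearest genes in colour and values below 19.8 raised to it. Lines join the values of 1 gene and stand for no time course. Every profile shown has its 3 Fos-/- values below its 2 Fos+/+ values, and the black profile spans a wider range in the left panel than in the right.

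Most measured genes of the osteoclast list were lower in Fos-/- spleen along with the members. The list was chosen with earlier results of these data known, so the counts below are a description and no test. In Fos-/- spleen compared with Fos+/+ spleen, 13 of 18 measured genes of a 23-gene list were lower by 2-fold or more. Of the others, 0 were higher and 5 neither. The median log2 ratio was -2.14 against 0.00 for all 8251 genes, which include genes under the floor in every array. The background of 6.48% lower is over genes bright enough to be counted. Itgb3, Traf6 and Src of the list were too dim in both arrays to be counted as higher or lower. Acp5 was 8.31-fold lower, beside Car2, Ctsk, Nfatc1, Slc9b2 and Calcr above. With deltaNFAT over GFP, 7 of the 18 were higher and 0 lower (median 0.62, background 3.54%). Nfatc1 is among the 7, and whether its probe set also reads RNA of the deltaNFAT virus was not tested. In Fos-/- spleen with GFP over Fos+/+ bone marrow 13 were lower and 0 higher (median -1.66, background 9.23%). Summed over the measured list, intensity was 5171 with deltaNFAT, 2798 with GFP and 3255 without virus in Fos-/- spleen, against 14001 in Fos+/+ bone marrow and 18937 in Fos+/+ spleen. Src read at or below 0 in every array but Fos+/+ spleen, where it was under the floor. Calcr read at or below 0 in Fos-/- spleen with GFP and without virus, and Slc9b2 without virus.

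Marker lists of other cells in the dish are given for the same spleen pair, in which 6.42% of all genes were higher and 6.48% lower by 2-fold or more. The 16 measured macrophage genes of 20 summed to 18026 in Fos-/- spleen and 13068 in Fos+/+ spleen, with 4 higher, 2 lower and 0 at or below 0 in any array. The genes past 2-fold are named after their values were seen. The 4 higher ones were Marco (7.08-fold), Mrc1 (3.69-fold), Aif1 (3.24-fold) and C1qa (2.01-fold). The 2 lower ones were the integrin gene Itgam (at least 2.51-fold) and the myeloid transcription factor gene Spi1 (2.03-fold). Itgam was dim, with 49.7 in Fos+/+ spleen against a value under the floor. The range of the macrophage sum over the virus arrays and bone marrow was 15138 to 19863. The 17 measured stromal genes of 18 summed to 19876 in Fos-/- spleen and 16817 in Fos+/+ spleen, with 2 higher and 1 lower, and to between 17351 and 20009 in the other arrays. The 1 lower stromal gene was Dcn, which read under the floor in Fos-/- spleen, against 319.7 in Fos+/+ spleen (at least 16.1-fold lower), and is also the 2nd nearest profile to Gpr137b. Thy1 was at or below 0 in 4 of 5 arrays. The 11 measured neutrophil genes of 12 summed to 3247 in Fos-/- spleen and 1402 in Fos+/+ spleen, and 5 were higher and 0 lower. Lymphoid genes, with 11 measured of 14, summed to 906 in Fos-/- spleen and 596 in Fos+/+ spleen, with 2 higher and 0 lower, and Cd3e and Cd8b1 were at or below 0 in all 5 arrays. What share of the members' difference goes with the make-up of the dish was not tested.

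Other listed genes of the lysosomal membrane were mostly within 2-fold between the spleen cultures. Of 30 listed, 19 were measured, and in Fos-/- compared with Fos+/+ spleen 0 were lower by 2-fold or more, 1 was higher and 18 were neither, with a median log2 ratio of 0.03 against 0.00 for all genes. At a background of 6.48% lower, a count of 0 among 19 is near what all genes show. Vamp7 and Gpr143 were under the floor in both spleen arrays and could not be counted as higher or lower. The 1 higher gene was the transporter gene Abca2 (2.14-fold, 66.9 against 31.2), named after its value was seen. The chloride-proton exchanger gene Clcn7 and the cholesterol exporter gene Npc1 were each 1.71-fold lower in Fos-/- spleen and Cd68 1.66-fold lower. The iron transporter gene Slc11a1 was 1.67-fold higher, the hydrolase receptor gene Scarb2 1.65-fold higher and Lamp2, a major lysosomal membrane glycoprotein, 1.51-fold higher. This list holds no proton pump subunit. The pump subunit genes Tcirg1 and Atp6v1c1, counted in the osteoclast list, were 6.55-fold and 2.39-fold lower in Fos-/- than in Fos+/+ spleen. With deltaNFAT over GFP, 0 of 19 were higher and 2 lower, where 3.54% of all genes were higher and 2.58% lower. The 2 lower ones, Abca2 and the transporter gene Abcb9, named after their values were seen, were under the floor with deltaNFAT.

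The machinery that GPR137B is known to contact was counted in the same way. Of 24 genes of Rag GTPases, the Ragulator complex and mTORC1 signalling, 15 were measured and 15 were neither higher nor lower in Fos-/- than in Fos+/+ spleen (median log2 ratio -0.05). With 6.48% of all genes lower and 6.42% higher, a count of 0 among 15 is near the background. Rragd and Tsc1 were too dim in both spleen arrays to be counted as higher or lower. The largest ratios were those of Eif4ebp1, a translation repressor controlled by mTORC1 (1.63-fold lower), Flcn, a regulator of Rag GTPases (1.46-fold higher), the Ragulator gene Lamtor3 (1.34-fold lower), the Rag gene Rraga (1.28-fold lower) and the Ragulator genes Lamtor2 (1.19-fold higher) and Lamtor1 (1.15-fold higher). Rragc, whose product pairs with RagA or RagB, read 639 with deltaNFAT, 565 with GFP and 542 without virus in Fos-/- spleen, against 442 in Fos+/+ bone marrow and 479 in Fos+/+ spleen. With 1 array a group, these small ratios cannot be told from noise.

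Of the MiT/TFE transcription factors, which switch on lysosomal genes, 2 of a list of 5 were measured and both were dim. Mitf, a regulator of late osteoclast genes, read under the floor with either virus and 21.8 without virus in Fos-/- spleen, against 40.6 in Fos+/+ bone marrow and 23.1 in Fos+/+ spleen. Tfeb was under the floor in all 5 arrays. The related receptor genes Gpr137 and Gpr137c had no probe set under their own symbol in the annotation used here and were not analysed here.

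**Figure D4:**
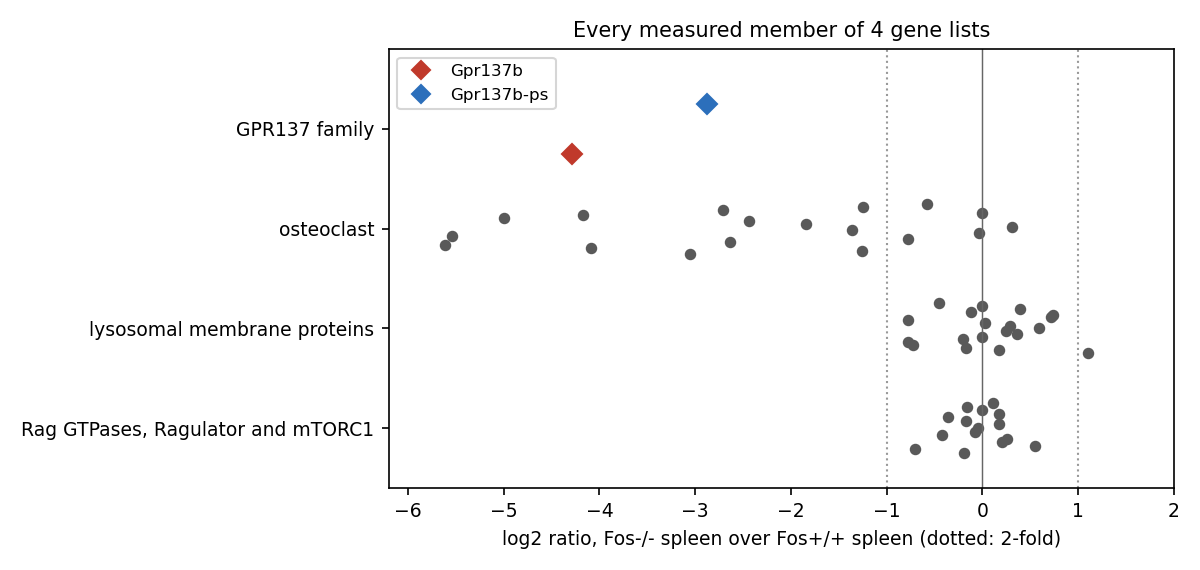
log2 ratio of Fos-/- spleen over Fos+/+ spleen for every measured gene of 4 lists, 1 point per gene, with 2-fold marked by dotted lines and values below 19.8 raised to it (a gene under it in both arrays lies at 0). Gpr137b (-4.29) and Gpr137b-ps (-2.88) lie within the range of the osteoclast genes. Of the 19 lysosomal membrane and 15 Rag and mTORC1 genes 0 are lower by 2-fold, which is near the 6.48% of all genes. The proton pump subunit gene Tcirg1 is in the osteoclast list and is plotted there.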

How the data were processed

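Total RNA of 5 co-cultures was measured on one-colour oligonucleotide arrays, 1 per group, and groups were taken from the sample titles. The deposited values are linear intensities, 1 for each probe set in each array. The sources used here name no software, settings or background step. The values were already scaled, with a mean of 100.1 in every array once the lowest and highest 2% were left out.

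Each array's values were scaled to that common mean, lifted to the floor (19.8) where lower, and put on the log2 scale. Of 12488 probe sets, 10855 carried 1 symbol in the platform annotation, 396 several and 1237 none. The 66 control probe sets stayed out. A gene was its brightest probe set over the 5 arrays. The 6 ratios were computed in Python 3.11.15 with pandas 2.3.3. The counting rule was also run on simulated data with a narrower spread below 0 than these arrays. That run therefore cannot speak for dim values. No test across arrays was possible. The members and gene lists were chosen with earlier results of these data known. Named genes were the members, the 10 most alike to each, the genes next to Gpr137b in rank (up to 5 a side), family and MiT/TFE members, and up to 6 bright members of 3 lists with the largest spleen ratios. Alternatives were no further scaling, quantile normalization, other floors, the mean of a gene's probe sets and leaving out suffixed probe sets. A noise floor was added after seeing the data.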

Additional observations from a re-analysis of the deposited data

How the results depend on the processing

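All 6 ratios of Gpr137b-ps kept their direction and their side of 2-fold under every alternative run. These were no further scaling, quantile normalization, floors of 65.1 and 98.8, the mean of probe sets and the omission of suffixed ones. Most of this was fixed in advance. Gpr137b-ps has 1 probe set, which carries no suffix, and its lowest value, 105.3, lies above every floor used. The deposited arrays already shared nearly the same mean, so only quantile normalization could have moved these ratios by more than a trace. For Gpr137b, the log2 ratio of Fos-/- spleen over Fos+/+ spleen was -3.19 at the floor of 65.1 and -2.58 at 98.8, and that of Fos-/- spleen with GFP over Fos+/+ bone marrow was -2.18 and -1.58, all past 2-fold and all lower bounds in size. Fos+/+ bone marrow over Fos+/+ spleen was -0.97 after quantile normalization and lost its call. The 3 ratios of Gpr137b among Fos-/- arrays have no value at 65.1 or 98.8, because both arrays then lie at the floor. Counts of all genes past 2-fold shrank with the floor because fewer genes were bright enough. For Fos-/- over Fos+/+ spleen they were 645 at 19.8, 264 at 65.1 and 164 at 98.8, and for deltaNFAT over GFP 308, 58 and 29. They were 1076, 410 and 243 for bone marrow over spleen, 889, 341 and 207 for GFP over no virus, 914, 372 and 238 for deltaNFAT over no virus, and 799, 257 and 146 for GFP over bone marrow. The planned floor at the 20th percentile was not run, since that percentile was -1.20 and has no logarithm. No paired analysis was possible because each group has 1 array. Signal over background limits Gpr137b in the Fos-/- arrays.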
